A study of Mus musculus with 9 samples.

Results

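The MHC class I presentation genes followed here are 10 genes: the heavy chain genes H2-K1, H2-D1 and H2-T23, the light chain gene B2m, the peptide transporter genes Tap1 and Tap2, the tapasin gene Tapbp, and the immunoproteasome genes Psmb8, Psmb9 and Psmb10. They were read in stomachs of newborn mice by 12 of the 55681 probes of an Agilent mouse array, every probe whose gene name on the array, or current RefSeq symbol, is one of the 10. A probe was kept if 4 or more of the 9 arrays read it well above background. That left 11 member probes, at least 1 for each gene, among 30188 probes kept in all. The probe lost was the second of Psmb9, which was above background on 0 of the 9 arrays.

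The 5 knockout mice (KO 1 to KO 5) are labelled C/EBPbeta KO and the 4 wild-type mice (WT 1 to WT 4) are labelled WT, with 1 whole-stomach RNA sample and 1 array each. All were killed at birth, although the source label calls them old. The labels used here give no strain, sex, deleted segment or promoter, and no treatment is named for either group. With no strain given, the form of the MHC genes that these mice carry is unknown. Its effect on the probe readings was not tested. The knockout is of Cebpb, which encodes the leucine zipper transcription factor C/EBP beta. Its probe fell by 5.48 ± 0.30 on the log2 scale (SE; limma adjusted p = 5.32e-05), with every KO array below every WT array.

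MHC class I molecules display peptides from the inside of a cell to CD8 T cells. Proteasomes cut the peptides, and under interferon their catalytic subunits are exchanged for those encoded by Psmb8, Psmb9 and Psmb10. The transporter made of TAP1 and TAP2 carries the peptides into the endoplasmic reticulum, and tapasin holds the transporter beside an empty class I molecule until a fitting peptide binds. The molecule itself is a heavy chain paired with beta-2 microglobulin. Almost all nucleated cells make it, so in a whole stomach the signal sums epithelium, muscle, vessels and blood cells. Fewer cells of a type and less RNA per cell cannot be told apart in such samples.

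Of the 10 genes, 8 lie in the MHC on chromosome 17, while B2m lies on chromosome 2 and Psmb10 on chromosome 8. Chromosome 2 also carries Cebpb, the gene knocked out. Class I heavy chain genes resemble each other, and 2 member probes show how closely. They are printed because their readings cannot be assigned to 1 gene with certainty. The second H2-K1 probe (array design on mm9, chr17:34133984-34134043, minus strand) and the H2-T23 probe (chr17:36167338-36167574, minus strand) share a run of 29 bases, in capitals.
H2-K1 probe 2: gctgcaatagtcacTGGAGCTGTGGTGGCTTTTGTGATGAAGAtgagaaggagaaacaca
H2-T23 probe: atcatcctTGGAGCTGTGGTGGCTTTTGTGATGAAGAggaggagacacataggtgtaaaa
The run covers bases 15 to 43 of the first and bases 9 to 37 of the second. The H2-T23 probe is 60 bases long but spans 237 bases of the genome, so it bridges an exon junction. The next longest run that a member's heavy chain probe shared with another heavy chain probe was 15 bases, between H2-T23 and H2-Q6. Probes were compared with probes and not with the transcripts of other genes. A short run therefore does not show that a heavy chain probe reads 1 gene.

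Upstream sequence from RefSeq (GRCm38.p6) was found for 9 of the 10 genes in 10 windows of 300 bases, from 250 before to 50 after a start. The stretches below are shown since the classical heavy chain genes carry the same arrangement and 1 member carries a match to a C/EBP motif. Capitals mark matches on either strand to GGGATTCC (part of an NF-kB site), TGACG (the core of a cyclic AMP response element), CCAAT, the core of an interferon-stimulated response element (GAAA, any 2 bases, GAAA) and TTGCNNAA (a C/EBP motif). None of the marked matches overlaps another.
H2-K1, chr17:34000335-34000457, minus strand: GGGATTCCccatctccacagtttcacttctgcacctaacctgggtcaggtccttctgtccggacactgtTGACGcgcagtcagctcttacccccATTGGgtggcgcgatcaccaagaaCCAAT
H2-D1, chr17:35262924-35263045, plus strand: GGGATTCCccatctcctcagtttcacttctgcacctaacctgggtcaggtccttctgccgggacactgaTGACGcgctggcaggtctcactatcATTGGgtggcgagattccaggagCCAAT
H2-T23, chr17:36032749-36032898, minus strand: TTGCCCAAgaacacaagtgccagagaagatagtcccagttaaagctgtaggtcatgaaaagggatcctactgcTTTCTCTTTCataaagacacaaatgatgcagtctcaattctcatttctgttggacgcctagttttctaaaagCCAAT
B2m, chr2:122147548-122147638, plus strand: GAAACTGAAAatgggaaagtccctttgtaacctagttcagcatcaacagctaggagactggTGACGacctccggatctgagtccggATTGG
In H2-K1 and H2-D1 the TGACG match lies 69 bases after the GGGATTCC match, and the inverted CCAAT follows 25 bases later in each. Over those 99 bases, 88 are identical. GGGATTCC was found in 1.06% of all 32851 promoter windows and in 2 member genes, H2-K1 and H2-D1. The interferon-stimulated element core was found in 3.44% of all windows and in B2m and H2-T23. Only exact matches were counted, so an element that departs from these letters would be missed, in H2-K1 and H2-D1 too. TGACG was found in 20.8% of windows and in 5 member genes, and CCAAT in 37.4% and in 7. TTGCNNAA was found in 10.8% of windows and in 1 of the 9 member genes, H2-T23, with its first base 197 bases before the start.

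Tap1 and Psmb9 are divergent neighbours with 225 bases between their starts. That stretch is shown because both genes have it upstream, with CCAAT and TGACG in capitals.
Tap1 and Psmb9, chr17:34187331-34187555, plus strand: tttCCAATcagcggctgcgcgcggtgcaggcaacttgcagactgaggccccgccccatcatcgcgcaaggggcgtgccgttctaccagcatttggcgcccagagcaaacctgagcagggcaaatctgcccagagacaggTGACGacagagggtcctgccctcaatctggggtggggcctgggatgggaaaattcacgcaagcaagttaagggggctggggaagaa
Tap2 is named only, with no upstream sequence shown.

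Levels below are log2 of the processed signal relative to the array's 75th percentile, so 0 is the 75th percentile and 1 is a doubling. Values are listed in the order KO 1 to KO 5, then WT 1 to WT 4. Levels of different probes are not compared, since probes bind with different strength. The 75th percentile ran from 221 to 472 signal units, and between 50.9% and 57.2% of spots were well above background. Differences are KO minus WT from limma over all 30188 probes kept, with its moderated SE, and adjusted p is Benjamini-Hochberg over those probes. WT 4 stood apart for many members, as shown further on, so each member's value without it is given where it changes the direction or moves the value by over 1.5 times. Y-linked signal was low on KO 2, KO 4 and KO 5 and on no WT array. Its part in the differences was not tested beyond a fit with it as a covariate. Slide 1 held KO 4, KO 5, WT 3 and WT 4, slide 4 held KO 2, WT 1 and WT 2, and slides 2 and 3 held 1 KO array each.

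None of the 11 member probes differed between genotypes at an adjusted p below 0.05 by limma, where 0.139% of all probes kept did (0.0729% higher and 0.0663% lower in KO). At an unadjusted p below 0.05 there was 1, Tap2, where 8.07% of all probes kept did. All 11 were higher in KO by the fitted difference, against 48.9% of all probes kept, with a median of 0.27 against −0.01. Tap2 was also the 1 member probe whose groups did not overlap, which 3.16% of all probes kept showed in either direction and 2.01% with KO higher. The differences ran from 0.00 for Psmb10 to 0.62 for Tap2. The direction was not the same under every scaling: Psmb10 was lower in KO after quantile normalization (−0.03) and after centring on the median of probes detected on all arrays (−0.0039), Tapbp after quantile normalization (−3.67e-05) and Tap1 after normexp background correction (−0.09).

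**Figure D1:**
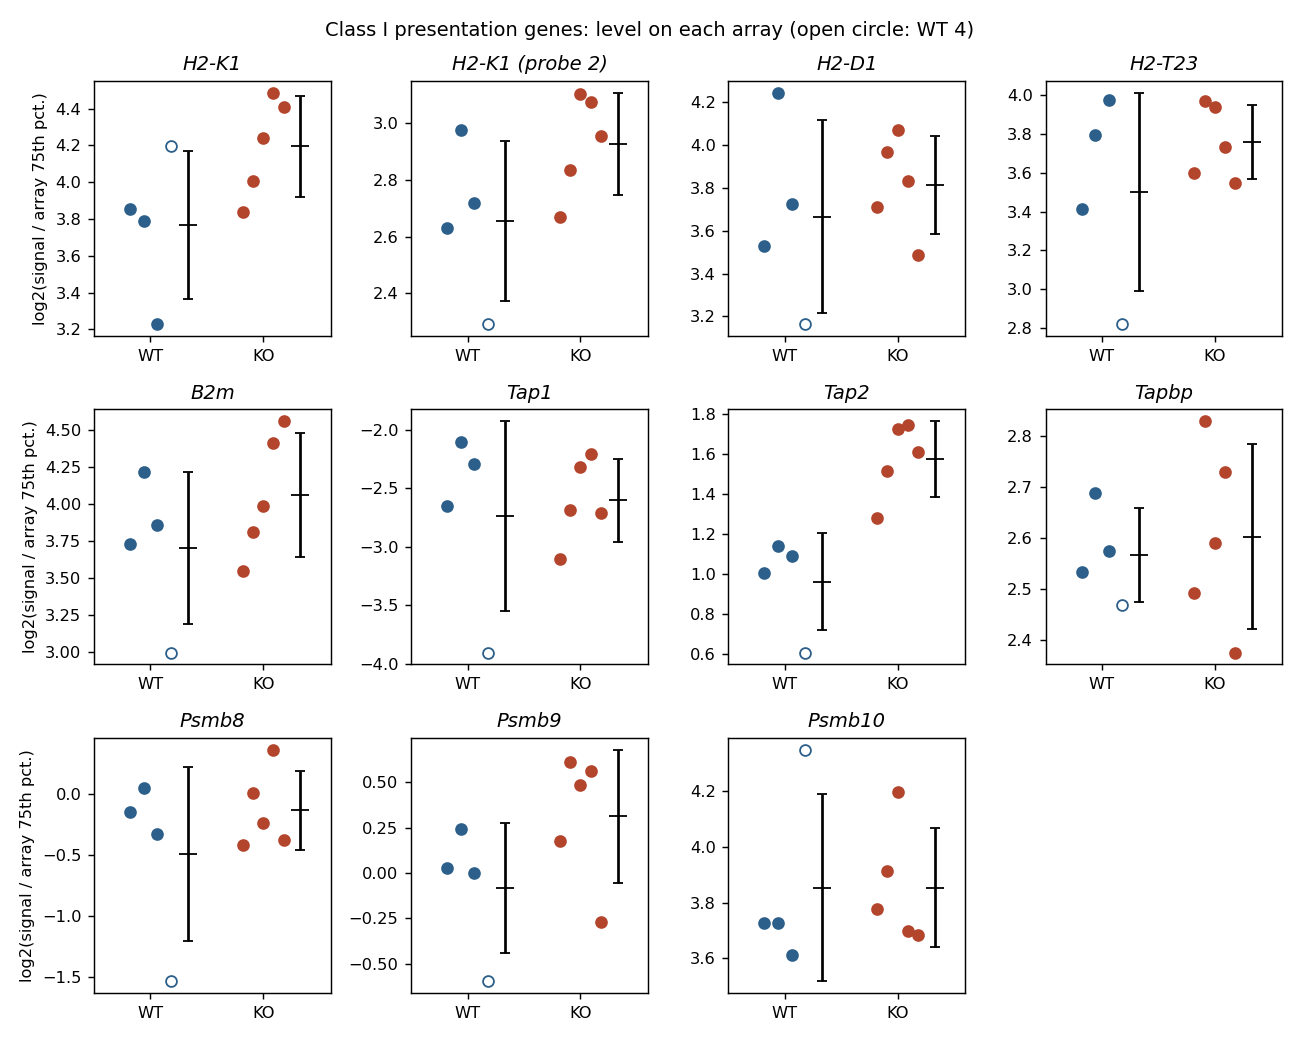
Log2 level relative to the array's 75th percentile (vertical axes, scaled separately) for the 11 member probes kept, by genotype, with 1 point per mouse and WT 4 as an open circle; bars beside the points are mean ± SD (4 WT, 5 KO). Tap2 is the 1 panel in which the KO points, 1.28 to 1.75, all lie above the WT points, 0.60 to 1.14.

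H2-K1 encodes a classical heavy chain, which presents peptides to CD8 T cells. Its first probe, at chr17:34133055-34133114 (mm9) and position 1488 of the transcript, read 3.84, 4.00, 4.24, 4.49 and 4.41 in KO and 3.85, 3.79, 3.23 and 4.20 in WT. WT 4 lay among the KO arrays and WT 3 lay lowest, so the groups overlapped. The difference was 0.43 ± 0.22 (SE; 95% interval −0.07 to 0.93; limma adjusted p = 0.685; exact permutation p = 0.0873), or 1.35-fold. This probe is printed 10 times on each array, and those spots differed by an SD of 0.06 to 0.12 log2 within an array, against an SD of 0.40 between WT mice. The second H2-K1 probe, at transcript position 1021 and shown above, read 2.67, 2.83, 3.10, 3.07 and 2.95 in KO and 2.63, 2.97, 2.72 and 2.29 in WT. Here WT 4 was the lowest of all arrays instead of among the highest. Its difference was 0.27 ± 0.18 (SE; 95% interval −0.12 to 0.66; limma adjusted p = 0.774), and 0.15 without WT 4.

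The H2-K1 probes therefore disagreed on single WT arrays. The first minus the second was 1.91 on WT 4, 0.51 on WT 3, 0.81 on WT 2 and 1.22 on WT 1, against 1.14 to 1.46 in KO. The later minus the earlier probe was taken over 2661 transcripts with probes at least 300 bases apart. Its median deviation from the 9-array mean was 0.04 to 0.06 on the KO arrays. On WT 1 to WT 4 it was 0.02, −0.10, −0.16 and 0.0035, so every KO array lay above every WT array. The part of this shift in the H2-K1 reading, and in the differences of the other members, Tap2 among them, was not tested. Without WT 3 the difference of the first probe was 0.25 (limma adjusted p = 0.970), and without WT 4 it was 0.57 (adjusted p = 0.258).

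H2-D1 encodes the other classical heavy chain measured. It was read at chr17:35403886-35403945 and gave 3.71, 3.97, 4.07, 3.83 and 3.49 in KO and 3.53, 4.24, 3.73 and 3.16 in WT. A WT array was both the highest (WT 2) and the lowest (WT 4). The difference was 0.15 ± 0.23 (SE; 95% interval −0.36 to 0.65; limma adjusted p = 0.936), and −0.02 without WT 4. H2-T23 encodes Qa-1, a non-classical class I molecule that natural killer cell receptors bind. It gave 3.60, 3.97, 3.94, 3.73 and 3.55 in KO and 3.41, 3.80, 3.98 and 2.82 in WT. WT 3 was the highest array by a little and WT 4 the lowest. The difference was 0.26 ± 0.24 (SE; 95% interval −0.27 to 0.78; limma adjusted p = 0.858), and 0.03 without WT 4.

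B2m encodes beta-2 microglobulin, the light chain that every heavy chain above needs to reach the cell surface. Its probe, at chr2:121978401-121978460, read 3.55, 3.81, 3.98, 4.41 and 4.56 in KO and 3.73, 4.22, 3.86 and 2.99 in WT. KO 4 and KO 5 were the highest, but KO 1 lay below all WT arrays other than WT 4. The difference was 0.36 ± 0.29 (SE; 95% interval −0.27 to 1.00; limma adjusted p = 0.822; exact permutation p = 0.286). It was 0.13 without WT 4, and −0.0014 with Y-linked signal as a covariate. Within slide 1 the difference was 1.06 and within slide 4 it was −0.16. The pair of B2m spots on an array differed by an SD of at most 0.22.

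Tap2 encodes a subunit of the peptide transporter and had the largest difference of the member probes over all 9 arrays. Its probe lies at chr17:34353116-34353175, at position 2339 of the transcript. It read 1.28, 1.51, 1.72, 1.75 and 1.61 in KO, or 712 to 1560 signal units. In WT it read 1.01, 1.14, 1.09 and 0.60, or 336 to 827 units. Every KO array lay above every WT array, with a gap of 0.14 between KO 1 and WT 2. The difference was 0.62 ± 0.17 (SE; 95% interval 0.24 to 0.99), or 1.53-fold, with a limma unadjusted p of 0.00471 and adjusted p of 0.354, so it did not pass over all probes. The exact permutation p was 0.0159, where the smallest possible over the 126 splits of the arrays is 0.00794. It was 0.50 without WT 4 (limma adjusted p = 0.186), 0.83 within slide 1 and 0.44 within slide 4. It was higher in KO under all 20 other settings, with values of 0.50 to 0.69 and an adjusted p from 0.0722 with array weights to 1.00 with Y-linked signal as a covariate.

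Tap1 encodes the other subunit of the transporter. Its probe, at chr17:34330854-34330913, was dim, with 34.2 to 98.8 signal units in KO and 14.8 to 79.8 in WT, and it was well above background on 5 of 5 KO and 3 of 4 WT arrays. The levels were −3.10, −2.68, −2.31, −2.21 and −2.71 in KO and −2.65, −2.10, −2.29 and −3.91 in WT. WT 2 was the highest array and WT 4 the lowest. The difference was 0.13 ± 0.36 (SE; 95% interval −0.66 to 0.92; limma adjusted p = 0.974), and −0.26 without WT 4. Tap1 is also printed 10 times per array, with an SD of 0.09 to 0.27 between spots. With each genotype centred on its own mean, the 2 transporter genes had r = 0.95 over the 9 arrays, and 0.93 without WT 4. That was the highest of the 45 pairs of members, whose median r was 0.51, and 0.44 without WT 4. These values describe arrays that share their scaling. Tap1 and its divergent neighbour Psmb9 had r = 0.73, and 0.49 without WT 4.

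Tapbp encodes tapasin, which links the transporter to the heavy chain. Its values, at chr17:34065963-34066022, were 2.49, 2.83, 2.59, 2.73 and 2.37 in KO and 2.53, 2.69, 2.57 and 2.47 in WT. The WT arrays lay inside the KO range, and WT 4 was close to the others here. The difference was 0.04 ± 0.15 (SE; limma adjusted p = 0.982), and its 95% interval, −0.29 to 0.36, was the narrowest of the 11. It spans 0.82-fold to 1.29-fold. Without WT 4 the difference was 0.0044.

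Psmb8, Psmb9 and Psmb10 encode the catalytic subunits that replace the constitutive ones in the immunoproteasome. Psmb8, at chr17:34337771-34337830, read −0.42, 0.01, −0.24, 0.36 and −0.38 in KO and −0.14, 0.05, −0.33 and −1.53 in WT. WT 4 lay 1.12 below every KO array and the other WT arrays lay within the KO range. The difference was 0.36 ± 0.32 (SE; 95% interval −0.35 to 1.07; limma adjusted p = 0.847), and 0.0094 without WT 4. Psmb9, at chr17:34319174-34319233, read 0.17, 0.61, 0.49, 0.56 and −0.27 in KO and 0.03, 0.24, −0.0014 and −0.60 in WT. KO 2, KO 3 and KO 4 lay above all WT arrays, while KO 5 lay below all but WT 4. The difference was 0.40 ± 0.24 (SE; 95% interval −0.13 to 0.92; limma adjusted p = 0.748), and 0.22 without WT 4.

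Psmb10, at chr8:108459677-108459736, read 3.78, 3.91, 4.19, 3.70 and 3.68 in KO and 3.73, 3.73, 3.61 and 4.35 in WT. In contrast to most members, WT 4 was its highest array. The difference was 0.00 ± 0.19 (SE; 95% interval −0.43 to 0.43; limma adjusted p = 1.00), and 0.17 without WT 4.

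**Figure D2:**
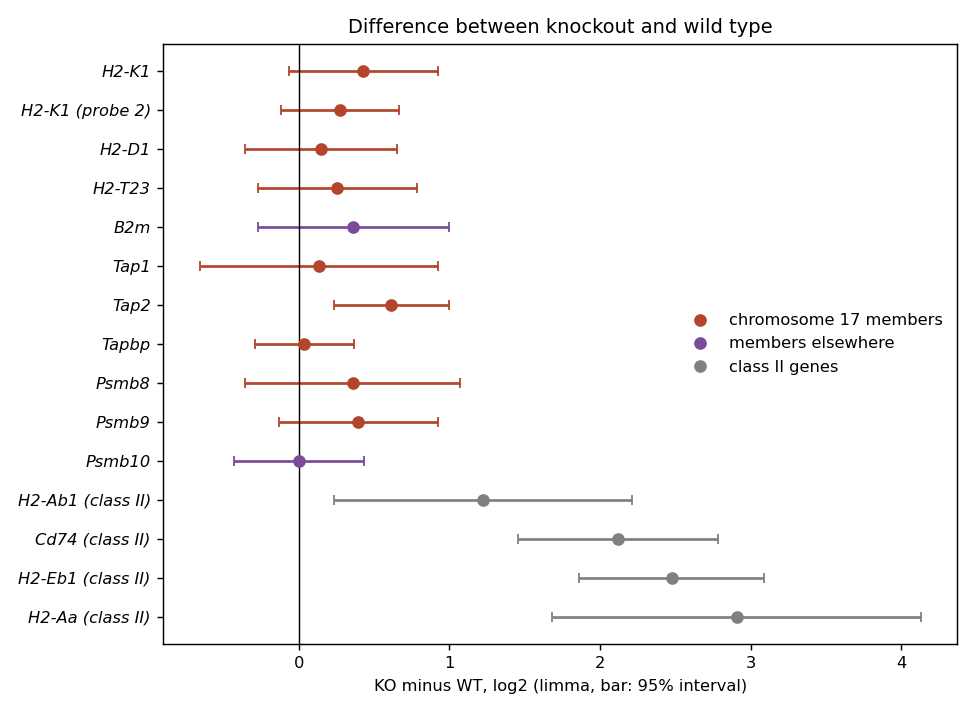
KO minus WT on the log2 scale (horizontal axis) for the 11 member probes and, in grey, 4 class II genes; points are limma estimates over 9 arrays and bars their 95% intervals. Of the member intervals, that of Tap2 (0.24 to 0.99) is the 1 that does not include 0.

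The 8 members on chromosome 17 had a mean difference of 0.30 over their first probes, with a median of 0.31 and a range of 0.04 to 0.62. The other members had a mean of 0.18, from 0.36 for B2m and 0.00 for Psmb10. The gap between the means was 0.11, and it was −0.01 without WT 4. Between single mice of a genotype the same quantity had an SD of 0.23. That SD is not the error of a difference between group means, so the gap was not tested by it. A pair of genes outside chromosome 17 is too few for a wider statement.

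The neighbourhood on the chromosome had no general shift. Of the 235 other probes kept within 1 Mb of the chromosome 17 member probes, 119 were higher in KO (50.6%), with a median difference of 0.0012. In this window 1 probe was called by limma, or 0.426%, where 0.139% of all probes kept were. It was that of H2-Eb1, a class II chain gene. By p, H2-DMb1 (1.13 ± 0.20 SE), H2-Aa (2.91 ± 0.55) and the lymphotoxin gene Ltb (0.73 ± 0.17) came next, with limma adjusted p of 0.0925, 0.126 and 0.266. Over the whole of chromosome 17, 47.3% of 1521 other probes were higher and 5 were called by limma, where 42 of all 30188 probes kept were.

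The class II genes, whose products present peptides from outside the cell to CD4 T cells, included 2 genes called higher in KO. Of 12 listed, 8 were tested and 8 were higher in KO (median 1.18). Limma called 2, where 0.17% of all genes' first probes were called. At an unadjusted p below 0.05 by limma there were 7, all higher in KO, where 8.38% of all genes' first probes passed. Without WT 4, 2 were called, where 150 of all 30188 probes kept were. In that fit 7 were higher (median 0.91), where 11810 of all 21722 genes' first probes were. H2-Eb1 was 2.47 ± 0.27 higher in KO (SE; 95% interval 1.86 to 3.09; limma adjusted p = 0.0114). Cd74, the invariant chain gene, was 2.12 ± 0.30 higher (95% interval 1.46 to 2.78; limma adjusted p = 0.0336). H2-Aa lay at 2.91 ± 0.55 (limma adjusted p = 0.126), but its probe was well above background on 2 of 4 WT arrays. H2-Ab1 lay at 1.22 ± 0.44 (limma adjusted p = 0.516), and at 0.69 without WT 4. H2-Ob, at 0.13 ± 0.31, lay below most of the members, and its probe was well above background on 3 KO arrays and 1 WT array. The highest upper bound among the member probes was 1.07, for Psmb8, below the lower bounds of H2-Eb1 and Cd74. The difference between the classes was not tested by itself, and H2-Eb1 and Cd74 were already known to be among the called genes.

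**Figure D3:**
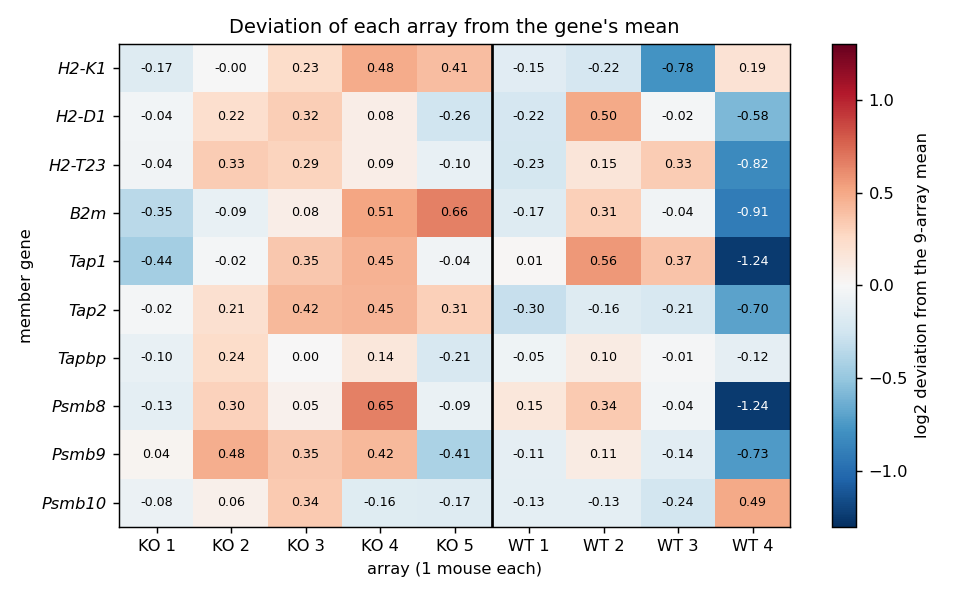
Log2 deviation of each array (columns, 1 mouse each) from the 9-array mean of each member's first probe (rows), with the KO arrays left of the line. WT 4 is the lowest array for 7 of the 10 genes and the highest for Psmb10.

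Across arrays, WT 4 had the lowest mean deviation over the 10 genes, −0.57, and the next lowest, KO 1, was at −0.13. WT 4 was the lowest of the 9 arrays for H2-D1, H2-T23, B2m, Tap1, Tap2, Psmb8 and Psmb9, and lay above the 9-array mean for H2-K1 and Psmb10. The mean deviation was 0.31 on KO 4, 0.24 on KO 3, 0.17 on KO 2, 0.16 on WT 2 and 0.0098 on KO 5. Without WT 4, the median difference of the 11 member probes was 0.13 instead of 0.27. In that fit 8 of 10 genes were higher in KO, where 11810 of all 21722 genes' first probes were. Limma called 0 member probes, and 2 had an unadjusted p below 0.05, those of Tap2 and H2-K1. The share of all probes at that unadjusted p was not counted in this fit. Over all 30188 probes kept 150 were then called instead of 42.

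WT 4 had the lowest mean level of the 9 arrays in 6 of the 10 other lists, namely the further class I heavy chains, constitutive proteasome, class II, leukocyte, endothelial and forestomach lists. It was the highest WT array for the glandular list (4.45, against 4.68 to 5.12 in KO) and the regulators (0.98, within the KO range), and not the lowest for the loading partners or interferon targets. The mean level of the leukocyte markers kept was −0.53 on WT 4 and −0.32 to 0.20 in KO. That of the endothelial markers was 0.28 on WT 4 and 0.53 to 0.83 in KO. The forestomach squamous markers read 2.85 on WT 4, against 3.37 to 4.72 in KO and up to 5.45 in WT. Their part in the class I levels was not tested. Without WT 4 the median difference was 0.13 for the further heavy chains, −0.10 for the loading partners, −0.00050 for the constitutive proteasome, 0.13 for the regulators and 0.14 for the interferon targets. It was 0.04 for the leukocyte, 0.08 for the endothelial, 0.62 for the glandular and −0.85 for the forestomach list, against 0.03 for all genes. Within slide 1 the genotypes differed by a median of 0.54 over the 10 genes, with 9 higher in KO, and within slide 4 by 0.19, with 8 higher, but slide 1 holds WT 4 and slide 4 holds 1 KO array.

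The genes whose group-centred level over the 9 arrays was most like the mean of the 10 members were Stat6 (r = 0.99), Brk1 (0.98), Copg1 (0.98), H2-Q5 (0.98), Copa (0.98) and Patz1 (0.97). Without WT 4 these values ran from 0.93 to 0.97. All arrays share 1 scaling, and the 6 genes were picked as the highest of 21722. None of the 6 was called different between genotypes by limma.

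**Figure D4:**
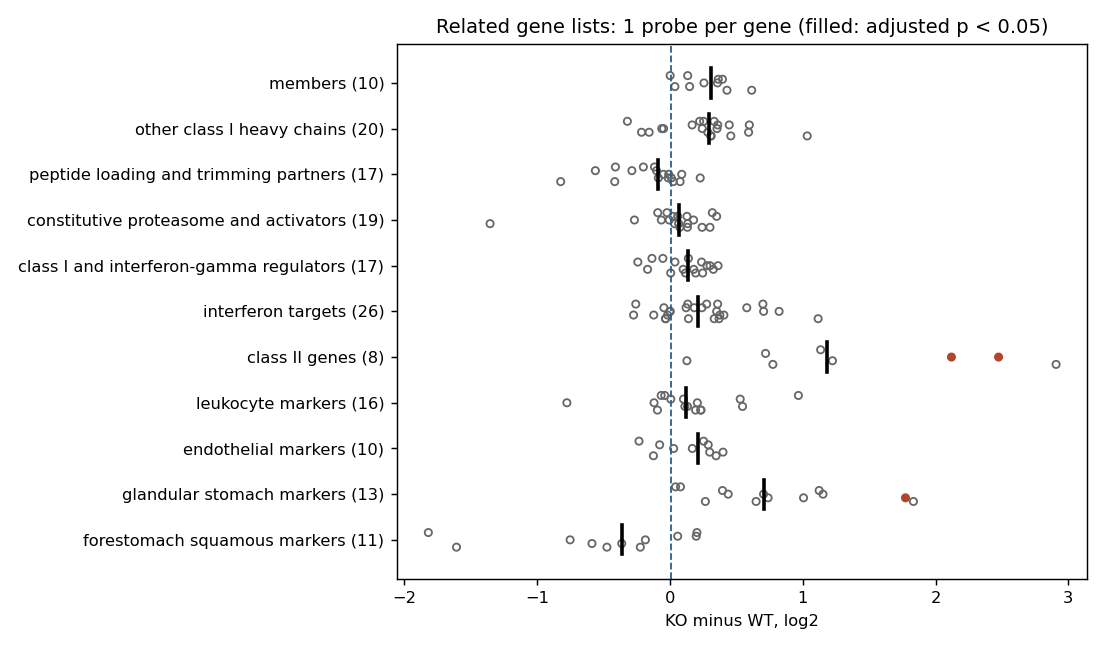
KO minus WT on the log2 scale (horizontal axis) for the genes of each list (rows, number tested in brackets), 1 probe per gene; black ticks are list medians, the dashed line is the median of all genes and filled points passed an adjusted p of 0.05. Filled points are in the class II list (H2-Eb1, Cd74) and the glandular list (Gkn2).

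Of the further class I heavy chain genes, 27 were listed, 20 were tested and 0 changed by limma, where 0.17% of all genes' first probes did. Of the 20, 15 were higher and 5 lower, with a median of 0.30 against 0.0049 for all genes. Procr, the endothelial protein C receptor gene with a class I fold, lay at 0.60 ± 0.14 (SE; limma adjusted p = 0.285) and was the 1 gene at an unadjusted p below 0.05, which 8.38% of all genes reached. Mr1, which presents vitamin metabolites, lay at 0.45 ± 0.25, Cd1d2, a lipid-presenting relative, at 0.46 ± 0.26 and H2-M3, which presents formylated peptides, at 0.33 ± 0.21. The longest run shared with a member's heavy chain probe was 12 bases for Mr1, 11 for Cd1d2 and 7 for Procr. Whether each probe of this family reads 1 gene was not tested, so these values are uncertain as to gene.

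Of 17 peptide loading and trimming partners, 0 changed by limma, 5 were higher and 12 lower, with a median of −0.09. Blmh, bleomycin hydrolase, lay at −0.82 ± 0.27 (SE; limma adjusted p = 0.463), and at −1.12 without WT 4, where it passed (adjusted p = 0.0413). Calr, the chaperone calreticulin of the loading complex, lay at −0.42 ± 0.19 (adjusted p = 0.639). Ide, an insulin-degrading protease, lay at −0.41 ± 0.31 and the aminopeptidase gene Npepps at 0.23 ± 0.16.

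The constitutive proteasome subunits and activators, 19 genes, had 0 calls by limma, 13 higher and 6 lower, and a median of 0.06. Psme3, an activator of the nuclear proteasome, lay at −1.36 ± 0.41 (SE; limma adjusted p = 0.417). Psme2, an interferon-induced activator subunit, lay at 0.24 ± 0.15, Psma2 at 0.32 ± 0.18 and Psme4 at −0.27 ± 0.19.

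Among 21 regulators of class I and of interferon gamma signalling, 17 were tested and 0 changed by limma (13 higher, 4 lower, median 0.14, 0 at an unadjusted p below 0.05). Irf1, an interferon-induced activator of class I promoters, lay at 0.0053 ± 0.25 (SE; limma adjusted p = 1.00). The 4 with the smallest p were Ifngr2, a receptor chain for interferon gamma, at 0.24 ± 0.14, Irf8 at 0.30 ± 0.18, the kinase gene Jak1 at 0.25 ± 0.16 and Creb1 at −0.24 ± 0.17. Nlrc5, the transactivator of class I genes, had no probe kept. The probes of Nlrc5 were well above background on at most 1 of 5 KO and 2 of 4 WT arrays. The probe of the interferon gamma gene Ifng was above background on 0 arrays.

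Of 28 interferon targets, 26 were tested and 0 changed by limma (18 higher, 8 lower, median 0.21). Ifit1 lay at 1.12 ± 0.37 (SE; limma adjusted p = 0.474), but its probe was well above background on 1 of 4 WT arrays. Gbp4, a guanylate-binding protein gene, lay at 0.58 ± 0.21 (adjusted p = 0.518), Ifit3 at 0.71 ± 0.35 and the chemokine gene Cxcl10 at 0.82 ± 0.44, with its probe well above background on 2 of 4 WT arrays.

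Of the stomach markers, 13 of 13 glandular genes and 11 forestomach genes had a probe kept. The further name on the forestomach list, Loricrin, is another symbol of Lor. Of all probes of the array 30188 of 55681 were kept, so passing that filter does not by itself bear out the tissue label. In the glandular list 13 of 13 were higher in KO (median 0.70), where 50.9% of all genes' first probes were. At an unadjusted p below 0.05 by limma there were 7, all higher in KO, where 8.38% of all genes' first probes passed. Limma called 1, where 0.17% were called, and the fit without WT 4 called 2. The 1 called over all 9 arrays was Gkn2, of surface mucous cells, which rose by 1.77 ± 0.25 (SE; limma adjusted p = 0.0336). Gkn1 lay at 1.83 ± 0.36 (adjusted p = 0.148, and 0.00663 without WT 4, where it was 2.24), Tff2 at 0.65 ± 0.18 and the endocrine gene Chga at 0.74 ± 0.20. The forestomach list had 0 calls by limma, 3 higher and 8 lower, with Krt10 at −1.61 ± 0.90, Krt1 at −1.82 ± 1.16, Lor at −0.59 ± 0.44 and Ivl at −0.75 ± 0.73. Of 22 leukocyte markers 16 were tested, with 0 calls by limma, 11 higher and a median of 0.12. Itgax, known from dendritic cells, lay at 0.97 ± 0.25 (SE; limma adjusted p = 0.311), with its probe well above background on 2 of 4 WT arrays. Cd52 lay at 0.55 ± 0.24, Lyz2 at −0.78 ± 0.52 (well above background on 2 of 5 KO and 3 of 4 WT arrays) and Csf1r at 0.23 ± 0.16. The probes of Cd8a and Cd8b1, which define the T cells that read class I, were above background on 0 arrays. Of 10 endothelial markers 0 changed by limma and 7 were higher (median 0.21), with Egfl7 at 0.30 ± 0.18, Cdh5 at 0.40 ± 0.27, Emcn at 0.35 ± 0.25 and Tek at 0.29 ± 0.27. Without WT 4 the last 3 were at 0.21, 0.10 and 0.06. The part of any cell type in the class I levels was not tested.

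**Figure D5:**
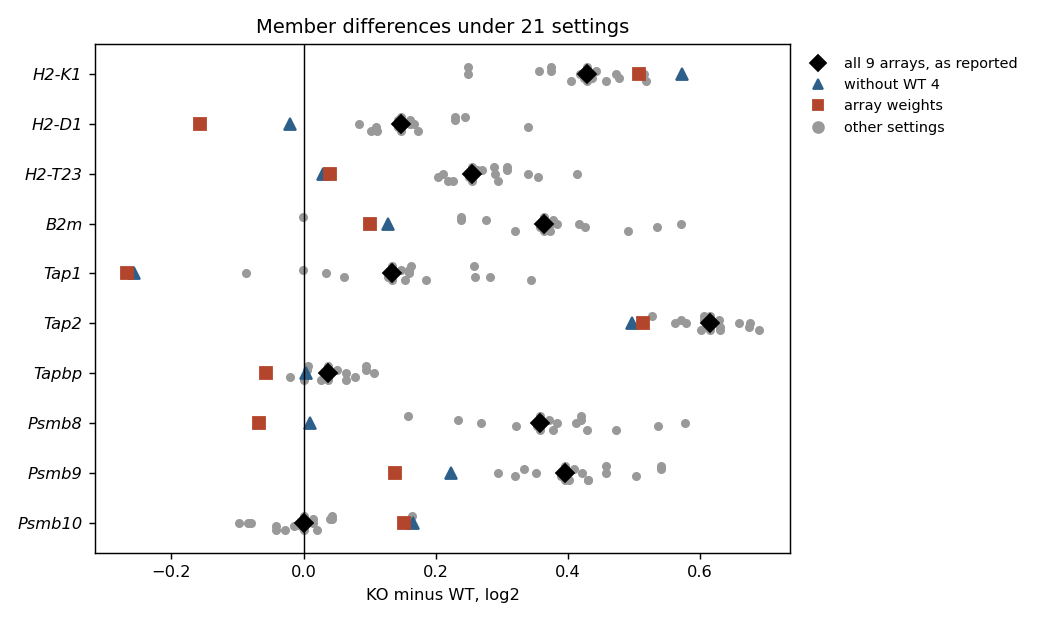
KO minus WT on the log2 scale (horizontal axis) for each member's first probe (rows) under the reported setting (diamonds) and 20 others, among them the fit without WT 4 (triangles) and with array weights (squares). Tap2 stays between 0.50 and 0.69, while H2-D1, Tap1, Tapbp, Psmb8, Psmb10 and B2m cross 0 under at least 1 setting.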

How the data were processed

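RNA of 9 newborn stomachs was labelled with Cy3 and hybridised to 1-colour arrays, per the labels' protocols. The deposited scanner values are spot intensity, made with Feature Extraction 10.5.1.1 per the file headers (9.1 per the submitters' processing notes), background-subtracted and not scaled between arrays. Yes or no flags of another kind come with each spot in the deposited files. The value table deposited with the series is on a log2 scale. Its differences between arrays, less 1 constant per array, deviated from log2 signal by a median of 1.88e-07, which settles scale and direction. Its probe centring is unknown, and its column medians ran from −0.28 (WT 1) to 0.38 (WT 4).

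Control and outlier spots were left out, spots of a probe averaged as log2, the array's 75th percentile subtracted, and 21 probes without a value on some array dropped. limma 3.58.1 in R 4.3.3 compared KO with WT (lmFit, eBayes, two-sided, threshold 0.05). Exact permutation tests are two-sided. The first probe of a gene is its brightest. Names came through RefSeq for 26762 probes. Per gene list, the genes named are the members and up to 4 with the smallest p, plus Nlrc5 and Irf1 (a further gene of the rule is not reported here); members and lists were chosen with earlier results of these data known. In simulated data of 30188 probes, with noise drawn independently for each probe, the fit called 82 of 100 changes of 2 log2 units and 29 of 100 of 1. It also made 5 false calls. Changes as small as the largest member difference, 0.62, were not simulated. Mice of the same number did not deviate together in every pair (correlations −0.32, 0.08, 0.14 and −0.47), so numbers were not used as pairs. The alternatives were quantile normalization, another centring, normexp (offset 50), the series matrix, other filters, 1 probe per gene, slide and replicate blocks, the Y-linked level, array weights and leaving out each mouse.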

Additional observations from a re-analysis of the deposited data

Results flagged for a closer look

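The Psmb10 level on WT 4, 4.35, stood apart from the other WT arrays: its gap to the nearest was 0.846 of the range of the WT group, past the 95% limit for 4 samples. It was the 1 such value among 22 groups of member values, and chance gives about 1 in 20. The cause was not tested.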

How the results depend on the processing

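The count of member probes called by limma stayed at 0 under all 20 other settings, with an adjusted p of at least 0.0722. The median member difference, 0.27 as reported, ran from 0.10 with array weights to 0.38 without WT 2. It was 0.13 to 0.38 over the fits that left out a mouse. The gap between chromosome 17 and other members ran from −0.01 to 0.20 over the latter. Probes called over the whole table, 42 as reported, were 12 with no filter on dim probes, 11 with slide as a block, 6 with the replicate block of mice 1 to 4, 6 with Y-linked signal as a covariate, 528 with array weights and 9 to 150 when a mouse was left out. Directions turned for Psmb10 (−0.027 by quantile, −0.0039 by median centring, −0.098 with slide as a block), Tapbp (−3.67e-05 by quantile, −0.057 with array weights), Tap1 (−0.087 by normexp, −0.00044 with Y-linked signal, −0.27 with array weights), B2m (−0.0014 with Y-linked signal), H2-D1 (−0.16 with array weights) and Psmb8 (−0.067 with array weights). Over the fits that left out a mouse, Psmb10 ran from −0.084 (without KO 3) to 0.166 (WT 4) and was also below 0 without KO 2, WT 1, WT 2 or WT 3, Tapbp from −0.0199 (KO 2) to 0.0942 (KO 5), H2-D1 from −0.0199 (WT 4) to 0.3405 (WT 2) and Tap1 from −0.257 (WT 4) to 0.345 (WT 2). The cause was not tested. The replicate block changed no member's call (Tap2 0.61, adjusted p = 1.00), and mouse numbers share nothing else in the labels. Signal over background limits Tap1, the second Psmb9 probe and Nlrc5.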
